A study of Mus musculus with 48 samples.

Results

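The comparison set Δ(177-191) cells against wild type (WT) cells, both 12 h after 4-hydroxytamoxifen (4-HT), on 3 arrays each. These are 6 of the 48 arrays of the series, and the 2 groups were taken by their labels. All were 32D cells, an immature myeloid line of the mouse, that also expressed BCR/ABL, the fusion kinase of chronic myeloid leukaemia. Δ(177-191) cells carried the MigRI retroviral vector with C/EBPα-ER, in which C/EBPα is fused to estrogen receptor sequence that binds 4-HT, lacking residues 177 to 191; the labels call this mutant deficient in contact with CDK2 and CDK4. WT cells carried the same vector with the full-length C/EBPα-ER. BCR/ABL, the vector, the fusion to the receptor and the exposure to 4-HT were thus shared. The same lines at 0, 6 and 9 h gave the course of the difference, and cells with the empty vector (vector cells) are given as background. Each construct came as 1 line, so construct and line cannot be told apart, and cultures kept without 4-HT until 12 h were not analysed here. The labels call the arrays both triplicates and separate experiments, and the p-values cover just the variation among them. The question was how far the lines stood apart at the last time, and how much of that was there before 4-HT.

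C/EBPα is a transcription factor that turns myeloid progenitors towards granulocytes and monocytes: it binds DNA through its basic region, opens the genes of granule proteins and cytokine receptors, and slows the cell cycle. Part of its effect on proliferation has been tied to contact with cyclin-dependent kinases and with E2F factors, which drive the genes of DNA replication. MYB, GATA2 and MYC keep progenitors immature and dividing, and all are usually switched down as granulocytes mature.

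The 6 arrays were alike in scale. Their median signals were 12 to 16 in Δ(177-191) cells and 12 to 13 in WT cells, and 0.906% to 2.57% and 1.61% to 2.68% of probe sets stood at 0. The Gapdh 3' to 5' ratios were 0.715 to 0.809 in Δ(177-191) cells and 0.794 to 0.806 in WT cells. Esr1, whose transcript the fusion carries in part, served to tell fusion lines from vector cells. Both lines compared carry the fusion, so Esr1 cannot check which of their labels is right for an array. Its signal was 2800, 3308 and 3938 in Δ(177-191) cells, against 2225, 2001 and 2292 in WT cells and a mean of 18.7 in vector cells. The fusion lines did not overlap with each other, at a log2 difference of 0.61 ± 0.24 (standard error, adjusted p = 0.0504). The difference passed under some settings, such as quantile normalization (0.57, adjusted p = 0.0376) and without Δ(177-191) replicate 1 (0.73, adjusted p = 0.0381). It stayed uncalled under others, such as no filter, an added constant of 1 and without replicate 2 of every group. Another Esr1 probe set, at mean signals of 128 and 47.3, differed by 1.36 ± 0.13 (adjusted p = 2.11e-11). The lines therefore did not carry equal Esr1 signal, and its part in the differences below was not tested. Ptprc, the leukocyte antigen CD45, had a signal of at least 1558 on all 6 arrays, and the stem cell factor receptor gene Kit stood at 3, 6 and 10 in Δ(177-191) cells against 13, 2 and 3 in WT cells, near the floor.

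At 12 h, 8792 of 27167 probe sets tested differed between the lines (adjusted p under 0.05), which is 32.4%: 3966 were higher and 4826 lower in Δ(177-191) cells. In genes, with the brightest probe set standing for each, 2143 of 12800 were higher (16.7%) and 2903 lower (22.7%). Of these, 710 and 594 differed by at least 2-fold, and 64 and 45 by at least 8-fold. Before 4-HT, 6069 probe sets already differed (22.3%), with 1718 genes higher (13.4%) and 1812 lower (14.2%). At 6 h and 9 h, 8277 and 9065 probe sets did (30.5% and 33.4%), with 17.3% of genes higher at both times, 19.9% lower at 6 h and 40.3% called either way at 9 h. Without replicate 2 of every group the count at 0 h was 3996.

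Much of the difference at 12 h already stood at 0 h. Whether the fusion was active at 0 h was not tested. Of the 2143 genes higher at 12 h, 1034 (48.3%) were called higher at 0 h too, which is 60.2% of the 1718 at 0 h, and 106 were called lower there. Of the 2903 lower, 1175 (40.5%) were called lower at 0 h, 64.8% of the 1812, and 217 were called higher there. The arrays of 0 h and 12 h are different arrays of the same lines. Across the 12800 genes the differences at the 2 times had a Pearson correlation of 0.605, and 0.737 across the 7127 genes with a group mean of 100 or more; genes are not independent replicates, and all share the same libraries. The change of the difference itself, 12 h minus 0 h, passed for 4527 probe sets (16.7%), 2114 up (7.78%) and 2413 down (8.88%). In genes 1199 went up (9.37%) and 1568 down (12.2%), 21.6% in all. That count was 2478 without replicate 2 and 2765 without replicate 3 of every group.

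**Figure D1:**
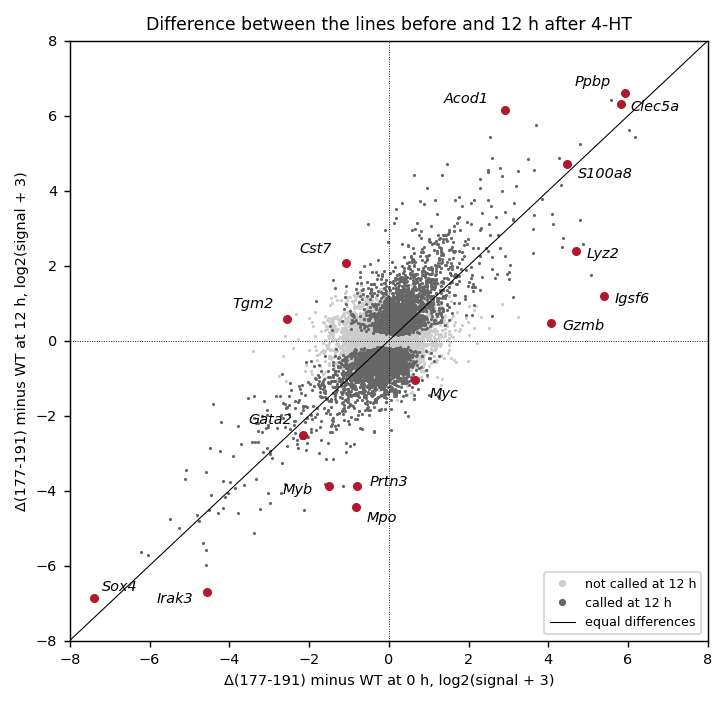
Each point is 1 of 12800 genes, placed by the log2 difference, Δ(177-191) minus WT, at 0 h (x axis) and at 12 h (y axis); dark grey points were called at 12 h, red points are named, and the line marks equal differences. Sox4 and Ppbp lie near the line, while Mpo, Prtn3 and Myb lie below it and Acod1, Cst7 and Tgm2 above it.

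The 15 largest rises in Δ(177-191) cells included genes of C-type lectin receptors (Clec4n, Clec5a and Clec4d) and chemokines (Ppbp, Ccl3, Cxcl2 and Ccl5), beside genes of other roles. Ppbp, the precursor of the chemokine CXCL7 of platelets and myeloid cells, had signals of 3361, 3340 and 4476 in Δ(177-191) cells, against 36, 34 and 35 in WT cells. The log2 difference was 6.60 ± 0.25 (adjusted p = 6.76e-25), and at 0 h it was already 5.93. The groups lay far apart, with every Δ(177-191) array far above every WT array. Whether more cells of a type or more RNA per cell gave such a difference cannot be told apart in these bulk samples.

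Genes of C-type lectin receptors, which bind sugars of microbes and signal in phagocytes, took 3 of the 15 leading places. The macrophage lectin gene Mgl2 was among the 15 largest falls (-5.14 ± 0.33), and the lectin family was not counted as a whole. Clec4n, which encodes dectin-2, had signals of 1291, 1332 and 1274 in Δ(177-191) cells and of 22, 13 and 6 in WT cells (6.41 ± 0.33). Clec5a stood at 725, 701 and 664 against 10, 1 and 10 (6.32 ± 0.39), and Clec4d at 2405, 2237 and 2488 against 72, 84 and 81 (4.86 ± 0.14). None of the 3 overlapped between the lines, which their choice by the difference on these arrays largely fixed. Their differences at 0 h, on other arrays, were 5.57, 5.83 and 4.28. The change of the Clec4d difference, 0.58, passed the threshold, and those of Clec4n and Clec5a did not. Ccl3, which draws monocytes and neutrophils, was at 815, 1052 and 915 in Δ(177-191) cells against 22, 38 and 27 in WT cells (4.88 ± 0.50), with 2.58 at 0 h. Cxcl2, a neutrophil chemokine, was at 664, 733 and 540 against 17, 19 and 22 (4.85 ± 0.25), with 3.50 at 0 h. Ccl5, a chemokine for T cells and monocytes, was at 218, 217 and 160 against 9, 3 and 3 (4.72 ± 0.29), with 1.45 at 0 h. In these 3 chemokine genes the difference at 12 h exceeded that at 0 h past the threshold (2.31 ± 0.70, 1.35 ± 0.36 and 3.27 ± 0.42).

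Acod1, whose enzyme makes itaconate in activated macrophages, had signals of 308, 313 and 290 in Δ(177-191) cells and 2, 1 and 1 in WT cells (6.15 ± 0.34). Since WT cells stood near the floor, folds of this kind depend on the constant of 3 added before taking logs. The orphan nuclear receptor gene Nr4a3 (5.74 ± 0.44), the gene of a stefin-like inhibitor of cysteine proteases, Stfa2l1 (5.62 ± 0.33), Wfdc17 (5.44 ± 0.35), Bhlhb9 (5.42 ± 0.37), Mndal of the interferon-inducible HIN-200 family (5.24 ± 0.49), S100a8 (4.72 ± 0.35) and Ahnak, which encodes a large scaffold protein (4.61 ± 0.34), made up the rest of the 15. The further probe sets of Nr4a3 did not pass, at mean signals of at most 12.7 in both lines. Without WT replicate 2 the log2 difference of Ahnak was 3.96, and without replicate 3 of every group that of Mndal was 5.85. Signals of Stfa2l1 ran from 1578 to 1858 in Δ(177-191) cells and from 26 to 37 in WT cells, and at 0 h this gene already differed by 6.03.

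**Figure D2:**
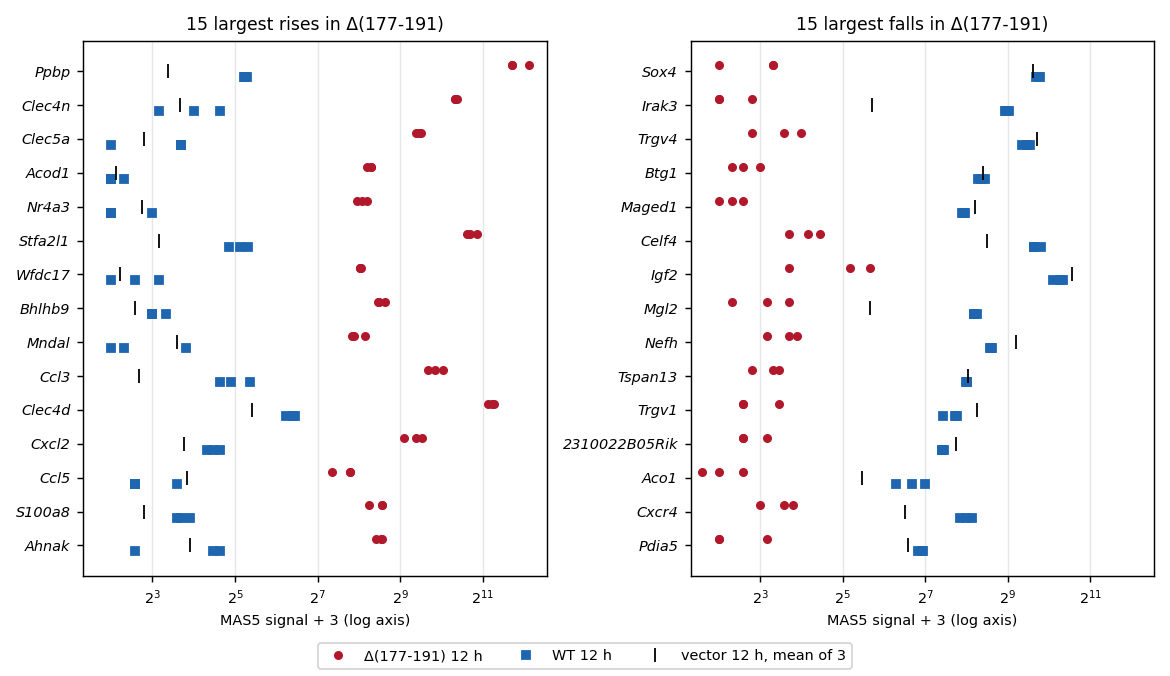
Signal + 3 on a log axis for the 15 genes with the largest rise (left) and fall (right) in Δ(177-191) cells at 12 h, with 1 mark for each Δ(177-191) array (circles) and WT array (squares) and a bar for the mean of 3 vector arrays. In none of the 30 genes did the lines overlap, which choosing them by their difference on the same arrays largely fixed beforehand. Vector cells lay nearer to WT cells in all rises shown. Among the falls, all vector arrays lay between the lines for Sox4, Irak3, Celf4, Mgl2, Aco1, Cxcr4 and Pdia5.

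The largest falls included transcripts that were close to absent in Δ(177-191) cells. Sox4, a transcription factor of progenitors and leukaemic cells, had signals of 1, 7 and 7 in Δ(177-191) cells, against 869, 826 and 860 in WT cells. The log2 difference was -6.86 ± 0.33 (adjusted p = 3.36e-21), and at 0 h it was -7.38, so the level was near the floor in this line from the start. Irak3, an inhibitor of Toll-like receptor signalling, was at 1, 1 and 4 against 491, 517 and 483 (-6.70 ± 0.21). Its difference at 0 h was smaller, -4.56, and the change was -2.13 ± 0.30 (adjusted p = 6.76e-07). Btg1, an antiproliferative gene, was at 2, 5 and 3 against 324, 306 and 347 (-5.72 ± 0.25), and Maged1, a melanoma antigen family gene, at 2, 1 and 3 against 234, 241 and 247 (-5.63 ± 0.17). Both were already at 10 or less on every Δ(177-191) array at 0 h.

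Further falls of this size were in Celf4, an RNA-binding protein gene (-5.59 ± 0.21), Igf2, the insulin-like growth factor 2 (-5.39 ± 0.22), the macrophage lectin gene Mgl2 (-5.14 ± 0.33), the neurofilament gene Nefh (-5.01 ± 0.25) and the tetraspanin gene Tspan13 (-4.82 ± 0.16). The variable segments Trgv4 (-5.98 ± 0.22) and Trgv1 (-4.76 ± 0.23) of the T cell receptor γ locus, 2310022B05Rik (-4.64 ± 0.31), Aco1, an iron-regulated aconitase (-4.60 ± 0.30), and Pdia5, a protein disulfide isomerase (-4.51 ± 0.23), followed. Segments of that locus resemble each other, so their probe sets may not tell them apart. Cxcr4, the receptor for the chemokine that holds progenitors in the marrow, was at 5, 11 and 9 in Δ(177-191) cells against 226, 252 and 280 in WT cells (-4.53 ± 0.23). Its difference at 0 h was -2.12, and the change of -2.40 ± 0.33 passed the threshold (adjusted p = 3.23e-07).

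Myb and Gata2, transcription factors that the study's title singles out, were both lower in Δ(177-191) cells at every time. Myb had signals of 151, 184 and 146 in Δ(177-191) cells at 12 h, against 2446, 2342 and 2439 in WT cells. The groups were far apart, at a log2 difference of -3.89 ± 0.10 (adjusted p = 1.79e-30). In Δ(177-191) cells the mean signal at 0, 6, 9 and 12 h was 768, 259, 196 and 160, while in WT cells it was 2166, 2770, 2482 and 2409. The difference of Myb at 0 h was -1.49, and its change was -2.40 ± 0.14 (adjusted p = 1.21e-16). Vector cells stood near WT cells, with a mean of 2005 at 12 h.

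Gata2 had signals of 136, 171 and 185 in Δ(177-191) cells at 12 h, against 1032, 893 and 909 in WT cells (-2.51 ± 0.08, adjusted p = 1.33e-26). Here the groups were nearly as far apart before 4-HT, at -2.16, and the change of -0.35 ± 0.12 was small but passed (adjusted p = 0.0364). Mean signals at 0, 6, 9 and 12 h were 409, 139, 160 and 164 in Δ(177-191) cells and 1841, 1050, 990 and 945 in WT cells. Both lines thus showed less Gata2 after 4-HT than before, from different starting levels.

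Of 28 progenitor transcription factors tested, 17 were lower and 4 higher in Δ(177-191) cells at 12 h, with a median log2 difference of -0.81 against -0.02 over all genes. Besides Sox4 and Myb, Ikzf2, the Helios member of the Ikaros family, fell (54, 53 and 66 against 587, 522 and 517, -3.17 ± 0.10). The rises were smaller: Ikzf1, which encodes Ikaros and is needed for lymphoid cells (1.15 ± 0.08), Mecom, a stem cell factor gene (0.50 ± 0.10), and Lmo2, an adaptor of progenitor factor complexes (0.42 ± 0.09). Lmo2 rested on Δ(177-191) replicate 1, whose signal was 1018 against 668 and 640 in its group; without it the difference was 0.21, and without replicate 1 of every group it lost its call (0.20, adjusted p = 0.0598). The same list had 17 lower and 2 higher at 0 h.

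**Figure D3:**
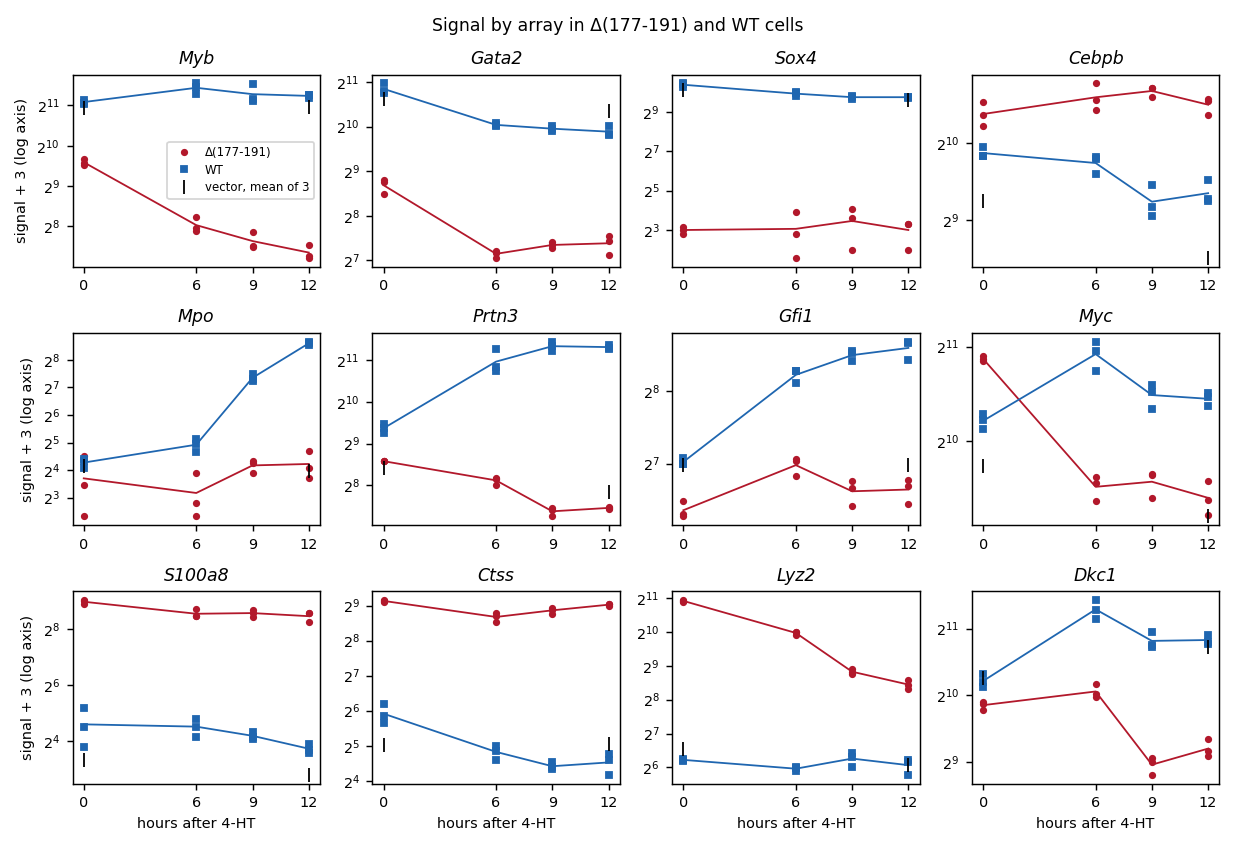
Signal + 3 on a log axis at 0, 6, 9 and 12 h after 4-HT for 12 genes, with 1 mark for each array of Δ(177-191) cells (circles) and WT cells (squares), lines through the group means and bars for the vector mean at 0 and 12 h. Myb, Prtn3 and Myc were lower in Δ(177-191) cells at 12 h than at 0 h, Mpo, Prtn3 and Gfi1 were higher in WT cells, and Sox4, S100a8 and Ctss stood apart at every time.

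Among the C/EBP family and myeloid factors, 8 of 27 were higher and 8 lower. Cebpb, a relative of C/EBPα in macrophages and emergency granulocyte production, was at 1502, 1322 and 1522 in Δ(177-191) cells against 615, 606 and 732 in WT cells (1.15 ± 0.10, adjusted p = 1.04e-12). Its difference was 0.50 at 0 h. The probe set of Cebpa stood at 40, 36 and 34 against 93, 104 and 92 (-1.33 ± 0.14), and at 0 h at means of 108 and 602 (-2.44). Whether this probe set reads the cells' own gene, the fusion or both was not tested. Gfi1, a repressor needed for neutrophils, was at 100, 106 and 84 against 344, 410 and 404 (-1.97 ± 0.10), a difference that was -0.67 at 0 h. Its mean at 0, 6, 9 and 12 h was 78.7, 123, 95 and 96.7 in Δ(177-191) cells, against 127, 297, 360 and 386 in WT cells. Spi1, the gene of the myeloid factor PU.1, was modestly higher (0.51 ± 0.10), as at 0 h (0.77).

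Granule genes differed in both directions. The primary granule list had 5 of 13 members higher and 5 lower at 12 h. Mpo, which encodes myeloperoxidase, was at 10, 14 and 23 in Δ(177-191) cells against 366, 388 and 401 in WT cells (-4.44 ± 0.40, adjusted p = 1.82e-12). At 0 h the lines overlapped (8, 2 and 20 against 18, 14 and 17; -0.83, adjusted p = 0.145), and the change of the Mpo difference was -3.60 ± 0.57. Prtn3, the serine protease proteinase 3, was at 175, 169 and 172 against 2646, 2532 and 2491 (-3.87 ± 0.13), and Ctsg, cathepsin G, at 12, 1 and 13 against 142, 155 and 133 (-3.89 ± 0.42; -3.24 without Δ(177-191) replicate 2). The means of Prtn3 at 0, 6, 9 and 12 h were 379, 274, 162 and 172 in Δ(177-191) cells and 658, 2006, 2595 and 2556 in WT cells. The WT mean of Prtn3 was higher at each later time than at 0 h, and that of Δ(177-191) cells was lower.

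The lysozyme genes went the other way. Lyz2, the lysozyme of granulocytes and macrophages, was at 314, 345 and 378 in Δ(177-191) cells against 72, 68 and 52 in WT cells (2.39 ± 0.13). The gap had been larger at 0 h, with 1935, 1958 and 1895 against 70, 73 and 72 (4.69), and had narrowed by -2.31 ± 0.18. Lyz1 followed it (2.57 ± 0.21 at 12 h and 4.86 at 0 h). The sequences of these neighbouring paralogs are close, so their probe sets may share signal. Another Lyz1 probe set went the same way at 12 h (2.07 ± 0.35). A further Lyz1 probe set, near the floor at means of 4.33 and 11.3, was not called (-0.97 ± 0.58). Cst7, an inhibitor of cysteine proteases in immune cells, was at 418, 501 and 543 against 121, 107 and 113 (2.06 ± 0.21), while at 0 h it had been lower in Δ(177-191) cells (-1.07). Because its members pointed both ways, the median of the primary granule list had no stable sign: it was -0.51, and 0.14 without replicate 3 of every group.

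Of the later granule and S100 genes, 12 of 15 were higher and 0 lower (12 and 1 at 0 h), with a median of 1.64 at 12 h. S100a8 and S100a9, which form calprotectin, an abundant protein of neutrophils and monocytes, were at 374, 299 and 373 against 10, 12 and 9 (4.72 ± 0.35) and at 280, 254 and 219 against 9, 15 and 10 (4.16 ± 0.31). Both stood as far apart at 0 h (4.47 and 4.31). Chil1, a chitinase-like protein of specific granules, differed by 3.64 ± 0.49 at 12 h (128, 101 and 115 against 10, 13 and 1; 3.02 without WT replicate 3) and by 0.89 at 0 h (adjusted p = 0.214). Lcn2, the siderophore-binding lipocalin (5748, 5876 and 7824 against 1545, 1490 and 1505, 2.08 ± 0.14), and Ltf, lactoferrin (163, 138 and 131 against 45, 30 and 37, 1.88 ± 0.21), were chosen after their values were seen, to show their promoters. At 0 h they differed by 2.27 and 1.93.

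The promoters of S100a9, Lcn2 and Ltf are printed because these granule genes were higher in the Δ(177-191) line and their windows hold the letters of a C/EBP site. Each window runs from 250 bases before to 50 bases after the start in RefSeq (GRCm38.p6), at chr3:90695672-90695971 on the minus strand, chr2:32387690-32387989 on the minus strand and chr9:111019042-111019341 on the plus strand. Capitals mark a match to TTGCNNAA on either strand, which begins at -236, -216 and -75 from the start.
S100a9: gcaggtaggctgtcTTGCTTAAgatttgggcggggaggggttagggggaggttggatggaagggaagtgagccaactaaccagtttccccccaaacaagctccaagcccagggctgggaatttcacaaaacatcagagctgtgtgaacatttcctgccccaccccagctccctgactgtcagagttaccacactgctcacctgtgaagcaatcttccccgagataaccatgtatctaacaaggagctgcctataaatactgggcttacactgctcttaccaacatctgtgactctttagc
Lcn2: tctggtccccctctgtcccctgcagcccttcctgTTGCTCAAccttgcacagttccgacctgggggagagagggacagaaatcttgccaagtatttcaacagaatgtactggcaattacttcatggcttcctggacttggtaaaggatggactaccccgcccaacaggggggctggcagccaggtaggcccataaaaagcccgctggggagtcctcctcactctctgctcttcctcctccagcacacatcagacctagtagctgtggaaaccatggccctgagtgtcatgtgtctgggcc
Ltf: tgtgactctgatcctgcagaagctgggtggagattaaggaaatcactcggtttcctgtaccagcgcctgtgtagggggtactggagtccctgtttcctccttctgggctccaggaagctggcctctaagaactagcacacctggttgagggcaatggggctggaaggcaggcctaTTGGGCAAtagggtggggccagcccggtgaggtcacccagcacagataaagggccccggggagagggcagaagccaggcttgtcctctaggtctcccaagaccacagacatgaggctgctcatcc
These letters stood in 5 of 12 later granule and S100 promoters with a window, in 4 of 11 of the primary granule list and in 10.1% of the 10329 windows of genes tested. They stood in 12.4% of windows of genes higher and 9.81% of those lower at 12 h. Both strands were searched, a stretch matching several motifs counts for each, and a match does not show binding.

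Most genes of phagocyte function that were called were higher in Δ(177-191) cells. Of 29 phagocyte receptors 20 were higher and 1 lower (median 1.38), and of 13 phagocyte oxidase and integrin genes 9 and 1 (0.99). Of 26 lysosome and cathepsin genes 20 and 2 were (0.66), and of 18 annexin and lipid mediator genes 13 and 2 (1.06). Before 4-HT these lists already had 16 higher and 3 lower, 6 and 2, 17 and 2, and 10 and 2, in that order. Ccr1, a receptor for chemokines such as CCL3, was at 1356, 1264 and 1382 in Δ(177-191) cells against 153, 142 and 163 in WT cells (3.10 ± 0.20). Itgam, the integrin CD11b of myeloid cells, was at 1321, 1636 and 1603 against 477, 471 and 483 (1.66 ± 0.16). In both genes the gap had been wider at 0 h, at 4.11 and 2.66. Csf3r, the receptor for granulocyte colony-stimulating factor, was at 200, 158 and 150 against 46, 34 and 41 (1.99 ± 0.32), and was not called at 0 h (0.52); it was chosen after its values were seen.

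Ctss, cathepsin S of antigen-presenting cells, was at 529, 522 and 504 against 15, 21 and 24 (4.52 ± 0.18, 3.24 at 0 h). Ncf1, the p47 subunit of the phagocyte oxidase (1.42 ± 0.09), the high-affinity IgG receptor gene Fcgr1 (1.81 ± 0.13) and Lipa, the lysosomal acid lipase (1.53 ± 0.10), were higher as well. The falls in these lists were Cxcr4 among the receptors (-4.53, given above), Fcgr2b, the inhibitory IgG receptor, at 322, 402 and 387 against 1232, 1105 and 1060 (-1.61 ± 0.13), the lysosomal glucuronidase and galactosidase genes Gusb (-0.67 ± 0.08) and Glb1 (-0.65 ± 0.13), and Alox5 and Ptger4 among the lipid mediators. Anxa1, an annexin that restrains inflammation, was at 5210, 5125 and 6689 against 1918, 1488 and 1656 (1.74 ± 0.14), and Ptges, which makes prostaglandin E2, differed by 2.81 ± 0.48. Alox5, the 5-lipoxygenase of leukotriene synthesis, was lower (15, 6 and 21 against 125, 125 and 90, -2.87 ± 0.32), with a wider gap at 0 h (-4.48). Ptger4, a receptor for prostaglandin E2, stood at 6, 1 and 14 against 36, 42 and 50 (-2.42 ± 0.32), and its other probe set, near the floor, was not called (-0.97 ± 0.44).

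Monocyte and macrophage markers, which these lists share in part, were higher in 8 and lower in 1 of 15 tested (8 and 2 at 0 h). Most were dim: of 26 on the array, 18 stood at 50 or less on every Δ(177-191) array at 12 h and 20 on every WT array. Mpeg1, the pore-forming perforin-2 of macrophages, differed by 2.66 ± 0.37 and Adgre1, the macrophage antigen F4/80, by 1.10 ± 0.08 (2538, 2014 and 2073 against 974, 1112 and 999; chosen after its values were seen). The fall was Tfec, a transcription factor of macrophages and osteoclasts, at 135, 81 and 79 against 1445, 1317 and 1406 (-3.82 ± 0.12). The summed signal of the list was 4496 to 4968 in Δ(177-191) cells and 3364 to 3379 in WT cells. Of the mannose receptor gene Mrc1, a marker of mature macrophages, the signals were 6 to 13 on all 6 arrays.

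Markers of other blood cells were mixed or near the floor. Of 15 mast cell and basophil genes 2 were higher and 5 lower: Cpa3, the mast cell carboxypeptidase, was at 25, 17 and 31 against 624, 596 and 574 (-4.49 ± 0.13), and Slc18a2, a monoamine transporter, differed by -2.76 ± 0.09. Ltc4s, the leukotriene C4 synthase, was higher (1.56 ± 0.09). Of 14 erythroid and megakaryocyte genes 2 were higher and 4 lower, the 2 being Ppbp and its neighbour Pf4, platelet factor 4 (584, 539 and 479 against 39, 36 and 33, 3.78 ± 0.17). Itga2b, the platelet integrin CD41 that progenitors also carry, was at 100, 93 and 128 against 816, 732 and 744 (-2.81 ± 0.10). The megakaryocyte markers Gp9 and Vwf stood at 4 to 21 and 7 to 17 on all 6 arrays, and the globin gene Hba-a1 at 1 to 11. Of 21 lymphoid markers on the array, 19 stood at 50 or less on every Δ(177-191) array and 20 on every WT array, with Cd3e at 3 to 5. Of 20 fibroblast and stromal markers 18 did so in both lines, with Col1a1 at 8 to 19. Of the few tested, 1 of 7 lymphoid and 2 of 11 fibroblast genes were higher and 0 lower. The lymphoid gene was Cd3d, a chain of the T cell receptor complex, at 59, 39 and 81 against 2, 2 and 3 (3.50 ± 0.52, 0.19 at 0 h). The fibroblast genes were Vim, vimentin, which myeloid cells also express (0.42 ± 0.14), and Acta2, smooth muscle actin (0.89 ± 0.33). Of these, 1 was called without replicate 1 or 3 of every group, and 0 without replicate 2. The part of such cells in the differences was not tested.

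Chemokine and cytokine genes were higher in 15 and lower in 4 of 26 (12 and 5 at 0 h). Among the falls, Il4, a cytokine of mast cells and T cells, was at 36, 53 and 61 in Δ(177-191) cells against 650, 701 and 667 in WT cells (-3.70 ± 0.26), and Il6, an acute-phase cytokine, at 28, 51 and 49 against 204, 194 and 198 (-2.19 ± 0.27). The chemokine gene Ccl6 was lower too (-2.38 ± 0.24). At 0 h the log2 differences of Il4, Il6 and Ccl6 were -3.32, -3.32 and -1.83. Of 34 immediate early and AP-1 genes 16 were higher and 5 lower, with Zfp36, which destabilises cytokine mRNAs, at 395, 502 and 521 against 41, 40 and 44 (3.40 ± 0.19). The phosphatase gene Dusp1, which ends MAP kinase signals, differed by 1.90 ± 0.11.

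Antigen presentation genes were higher in 9 and lower in 0 of 17 (9 and 1 at 0 h). Interferon response genes were higher in 15 and lower in 2 of 30 (10 and 5 at 0 h). Without replicate 1 of every group, and with quantile normalization, 1 antigen presentation gene was lower, and without replicate 1 or 2 of every group 1 interferon response gene was. Cd74, the invariant chain of class II molecules, was at 4234, 4006 and 5668 against 802, 839 and 881 (2.44 ± 0.11), and Psmb9, an immunoproteasome subunit, at 1073, 852 and 907 against 402, 382 and 385 (1.26 ± 0.10). Of 34 actin, adhesion and motility genes 16 were higher and 6 lower. The adhesion receptor gene Icam1 (574, 577 and 623 against 66, 69 and 80, 3.0 ± 0.11) and Cd44, a hyaluronan receptor (1.58 ± 0.12), were among them. Both differed by 2.32 and 1.75 at 0 h.

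**Figure D4:**
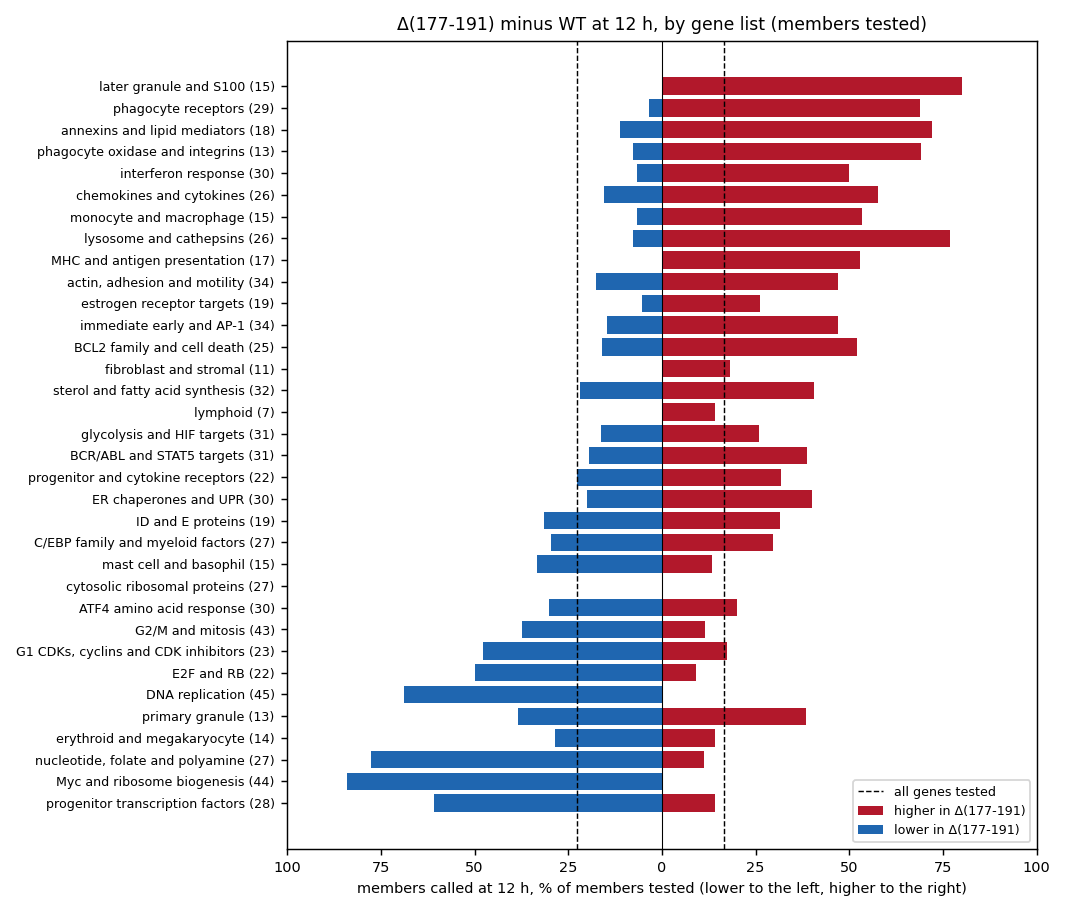
For each of the 34 gene lists, the share of tested members that were higher (right) and lower (left) in Δ(177-191) cells at 12 h, ordered by median log2 difference, with the number tested in brackets; dashed lines mark the shares over all 12800 genes, 16.7% and 22.7%. Later granule and S100 genes stood at the top with 12 of 15 higher, and Myc and ribosome biogenesis genes near the bottom with 37 of 44 lower. Among the 6505 brighter genes counted by chromosome below, the shares at 12 h were larger, 23.9% higher and 35.8% lower. The dashed lines are therefore not a background matched for signal, and no list was compared with genes of like signal.

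Genes of ribosome assembly and nucleotide synthesis were lower in Δ(177-191) cells at 12 h and not at 0 h. Of 44 Myc and ribosome biogenesis genes 37 were lower and 0 higher at 12 h (median -0.73), while at 0 h 4 were lower and 17 higher (median 0.22). The change passed as a fall in 38 and as a rise in 0 of the 44. At 6 h 36 were already lower, and at 9 h 38. Myc itself was at 592, 764 and 665 in Δ(177-191) cells against 1409, 1320 and 1455 in WT cells (-1.05 ± 0.09), and at 0 h at 1863, 1841 and 1905 against 1119, 1198 and 1243 (0.66). The lines changed order between the times: means at 0, 6, 9 and 12 h were 1870, 731, 759 and 674 in Δ(177-191) cells and 1187, 1936, 1434 and 1395 in WT cells. In vector cells Myc was at 853 and 588 at 0 and 12 h.

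Dkc1, the pseudouridine synthase dyskerin, was at 567, 648 and 538 against 1912, 1786 and 1749 (-1.63 ± 0.08, -0.36 at 0 h). Ppan (-1.66 ± 0.12) and Wdr74 (-1.24 ± 0.09), factors of large ribosomal subunit assembly, were the other leading falls. Of 27 cytosolic ribosomal protein genes 0 were called in either direction, with a median of 0.02. Under quantile normalization 3 were lower and the median was -0.04, without replicate 1 of every group 1 was lower, and without replicate 3 the median was -0.10. Nucleotide, folate and polyamine enzymes had 21 of 27 lower and 3 higher at 12 h and 3 lower and 11 higher at 0 h. Srm, spermidine synthase, was at 838, 761 and 846 against 2270, 2004 and 1984 (-1.35 ± 0.07, 0.03 at 0 h), and Mthfd1 of folate metabolism at 411, 552 and 545 against 1346, 1167 and 1169 (-1.29 ± 0.09). Gart, an enzyme of purine synthesis, turned round, at 360, 349 and 353 against 841, 791 and 790 at 12 h (-1.18 ± 0.08) and at 0.51 at 0 h.

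DNA replication genes followed later. Of 45 tested, 31 were lower and 0 higher at 12 h (median -0.50), against 10 lower and 5 higher at 6 h and 5 lower and 6 higher at 0 h. Pola1, the catalytic subunit of DNA polymerase α, was at 191, 202 and 173 in Δ(177-191) cells against 652, 626 and 665 in WT cells (-1.77 ± 0.09, -1.03 at 0 h). Pold2, a subunit of polymerase δ, was at 232, 274 and 248 against 642, 591 and 556 (-1.24 ± 0.09, -0.01 at 0 h). Pole2 of polymerase ε was lower as well (-1.20 ± 0.09, -0.65 at 0 h). So was Cdt1, the licensing factor, at 618, 524 and 463 against 1048, 1006 and 869 (-0.87 ± 0.09, 0.02 at 0 h). Cdt1 was chosen after its values were seen. Mitotic genes had 16 of 43 lower and 5 higher, and 10 lower without replicate 1 of every group.

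The promoters of Pola1, Pole2 and Cdt1 are printed because these replication genes were lower in the Δ(177-191) line at 12 h. Their windows hold the letters of an E2F site, TTTNNCGC on either strand, here in capitals. The differences at 0 h were -1.03, -0.65 and 0.02. Pola1 lies on the X chromosome and Pole2 on chromosome 12, whose median differences at 0 h were -0.19 and -0.39. The windows are at chrX:93632106-93632405 and chr12:69228141-69228440 on the minus strand and chr8:122567765-122568064 on the plus strand (RefSeq, GRCm38.p6), and the match begins at -138, 10 and 32 from the start.
Pola1: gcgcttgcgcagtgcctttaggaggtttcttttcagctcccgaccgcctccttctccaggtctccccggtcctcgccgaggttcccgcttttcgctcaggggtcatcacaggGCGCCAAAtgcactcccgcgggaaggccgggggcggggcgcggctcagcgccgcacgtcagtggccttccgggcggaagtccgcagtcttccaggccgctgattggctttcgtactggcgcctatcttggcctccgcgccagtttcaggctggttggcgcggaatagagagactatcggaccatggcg
Pole2: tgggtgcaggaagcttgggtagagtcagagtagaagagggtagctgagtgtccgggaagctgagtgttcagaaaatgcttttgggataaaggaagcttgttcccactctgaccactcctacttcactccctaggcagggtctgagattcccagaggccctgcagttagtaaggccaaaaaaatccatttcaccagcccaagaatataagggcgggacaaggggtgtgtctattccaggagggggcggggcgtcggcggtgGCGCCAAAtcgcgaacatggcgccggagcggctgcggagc
Cdt1: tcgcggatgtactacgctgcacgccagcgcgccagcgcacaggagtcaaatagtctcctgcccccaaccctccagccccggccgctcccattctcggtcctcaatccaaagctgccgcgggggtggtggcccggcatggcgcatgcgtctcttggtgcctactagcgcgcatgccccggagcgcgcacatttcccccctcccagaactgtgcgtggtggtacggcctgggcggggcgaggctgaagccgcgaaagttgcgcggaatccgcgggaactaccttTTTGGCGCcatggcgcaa
The E2F letters stood in 15 of 38 DNA replication promoters with a window (39.5%) and in 9.40% of the windows of genes tested, in 8.47% of those of genes higher and 12.9% of those of genes lower at 12 h. The E-box CACGTG, which MYC binds and which reads the same on both strands, stood in 8 of 38 promoters of the Myc and ribosome biogenesis list (21.1%) and in 11.3% of windows of genes tested. The letters of MYB sites (TAACNG) and GATA sites (AGATAA) stood in 22.6% and 8.26% of those windows.

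The kinases that the deleted region is said to contact differed little or moderately. Cdk2 was at 380, 355 and 326 in Δ(177-191) cells against 323, 331 and 326 in WT cells, and was not called (0.11 ± 0.09, adjusted p = 0.376). Cdk4 was at 1040, 1114 and 1218 against 2013, 1886 and 1909 (-0.79 ± 0.08), much as at 0 h (-0.65). Cdk6 was slightly lower (-0.27 ± 0.08, adjusted p = 0.0078), but not without Δ(177-191) replicate 1 (-0.20, adjusted p = 0.0982). Of the 23 G1 kinases, cyclins and inhibitors 11 were lower and 4 higher, and 2 were higher without replicate 2 or replicate 3 of every group.

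Among the G1 cyclins, Ccnd3 (724, 615 and 628 against 1183, 1159 and 1222, -0.86 ± 0.09) and Ccne1 (222, 196 and 147 against 351, 347 and 328, -0.87 ± 0.12) were lower, with equal or larger gaps at 0 h (-1.10 and -0.95). Ccnd2 and Ccnd1 were not called (-0.08 ± 0.09 and 0.58 ± 0.47), with Ccnd1 at signals of at most 23. Of the inhibitors, Cdkn1a (p21) was lower (-0.34 ± 0.10) and Cdkn1b (p27) higher (0.81 ± 0.28, adjusted p = 0.0214). Cdkn1a lost its call without replicate 3 of every group (-0.31, adjusted p = 0.0848). Cdkn1b lost its call in 5 of the settings that leave out arrays, at 0.73 without Δ(177-191) replicate 2, 0.77 without WT replicate 1 and 0.81 without WT replicate 2. Ccng2, a cyclin of arrested cells, was at 577, 608 and 607 against 253, 245 and 242 (1.27 ± 0.10).

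Of 22 E2F and RB genes 11 were lower and 2 higher, and 1 was higher without replicate 2 or replicate 3 of every group. E2f1, an activator of replication genes, was at 160, 140 and 140 against 282, 299 and 266 (-0.93 ± 0.14) and was not called at 0 h (-0.17). E2f8 (-0.89 ± 0.11) and E2f6 (-1.31 ± 0.14), repressors of the family, and Rbl1, the pocket protein p107 (-0.43 ± 0.09), were lower, and E2f2 was not called (-0.22 ± 0.13). Another E2f1 probe set did not differ past the threshold (-0.05 ± 0.27, means of 78 and 82.3). Rb1, the retinoblastoma gene, was at 402, 438 and 360 against 252, 205 and 213 (0.83 ± 0.15), as at 0 h (0.80). Smarca2, the BRM ATPase of SWI/SNF complexes, was higher by 0.56 ± 0.18, and not without Δ(177-191) replicate 3 (0.50, adjusted p = 0.0661).

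Other metabolic and signalling groups were mixed. Of 32 sterol and fatty acid synthesis genes 13 were higher and 7 lower: Hmgcs1, which opens sterol synthesis, was at 1735, 1941 and 1927 against 777, 755 and 760 (1.28 ± 0.09), Idi1, an isomerase of the same pathway, differed by 1.20 ± 0.09 after -0.54 at 0 h, and Fasn, fatty acid synthase, by -0.87 ± 0.08. Of 30 ATF4 amino acid response genes 6 were higher and 9 lower at 12 h, where 1 and 20 had been at 0 h; the change passed as a rise in 18 and as a fall in 0. Without replicate 2 of every group 5 were lower at 12 h. Of 30 ER chaperone genes 12 were higher and 6 lower. Ndrg1, a gene induced by low oxygen and differentiation, was at 1071, 1047 and 1124 against 200, 176 and 201 (2.47 ± 0.10), within a list of 31 glycolysis and HIF targets that had 8 higher and 5 lower.

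Of 25 BCL2 family and cell death genes 13 were higher and 4 lower, and 2 were lower without replicate 2 or replicate 3 of every group. Birc3, an inhibitor of apoptosis in NF-κB signalling, was at 697, 748 and 652 against 132, 162 and 142 (2.25 ± 0.13), the death receptor gene Fas at 102, 108 and 98 against 2, 8 and 6 (3.74 ± 0.46), and Bcl2 lower (-0.75 ± 0.12). Of 31 BCR/ABL and STAT5 targets 12 were higher and 6 lower. Abl1 was higher (0.61 ± 0.11) and Bcr was not called (-0.26 ± 0.10, adjusted p = 0.0503); without WT replicate 3 it was (-0.33, adjusted p = 0.0287). Of 19 ID and E protein genes 6 were higher and 6 lower, with Id2, an inhibitor of E proteins, at 1809, 1430 and 1589 against 387, 412 and 424 (1.97 ± 0.12) and its relative Id1 at 256, 404 and 368 against 665, 683 and 681 (-1.0 ± 0.16). Of 19 estrogen receptor targets 5 were higher and 1 lower, and without replicate 2 of every group 3 and 2, without replicate 3 of every group 3 and 1.

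Surface receptors of progenitors and cytokines were higher in 7 and lower in 5 of 22. Cd93, a receptor of early progenitors, was at 120, 146 and 148 in Δ(177-191) cells against 434, 397 and 428 in WT cells (-1.59 ± 0.09, -0.31 at 0 h). Il2ra, a subunit of the receptor for interleukin 2, changed order: at 290, 236 and 267 it was above the 102, 99 and 96 of WT cells (1.39 ± 0.11), and it had been below them at 0 h (-0.64). Podxl, a sialomucin of progenitors, did the same (1.57 ± 0.17 at 12 h and -0.54 at 0 h). Both genes were lower in each line at 12 h than at 0 h, by -1.11 and -0.86 in Δ(177-191) cells and by -3.14 and -2.97 in WT cells.

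Some genes differed much more, or much less, at 12 h than at 0 h. Besides Ccl5 and Acod1 (3.24 ± 0.49), the difference rose most in Tgm2, transglutaminase 2, with means at 0, 6, 9 and 12 h of 494, 289, 701 and 874 in Δ(177-191) cells and 2930, 2736, 539 and 582 in WT cells (3.14 ± 0.14). Cst7 (3.13 ± 0.29) and Pilra, an inhibitory receptor of myeloid cells (328, 247 and 286 against 13, 11 and 19 at 12 h, 3.12 ± 0.45), completed the 5. It fell most in Igsf6, an immunoglobulin family gene of myeloid cells (-4.20 ± 0.50). Igsf6 had means at 0, 6, 9 and 12 h of 178, 297, 280 and 367 in Δ(177-191) cells and 1.33, 106, 149 and 158 in WT cells, so WT cells approached the other line. The difference at 12 h, 1.20 ± 0.35, lost its call without replicate 3 of every group (adjusted p = 0.0871). Gzmb, granzyme B, and Cdh17, a cadherin, went down in Δ(177-191) cells, with means of 120 and 6.67 and of 247 and 21.7 at 0 and 12 h, and were low in WT cells throughout, at 5.67 and 3.33 and at 5 and 5 (-3.59 ± 0.61 and -3.32 ± 0.70). At 12 h Gzmb was not called (0.48 ± 0.43) and was called without replicate 3 of every group (1.38); Cdh17 was (1.74 ± 0.49), and not without WT replicate 2 (1.30, adjusted p = 0.0652). Mpo and Prtn3 (-3.08 ± 0.19) completed the 5 largest falls.

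The difference was not spread evenly over the chromosomes. Among 6505 genes with a mean signal of 100 or more, the 247 on chromosome 12 had a median log2 difference of -0.46 at 12 h and -0.39 at 0 h, and 65.6% and 61.9% of them were lower in Δ(177-191) cells. The 203 genes on the X chromosome had medians of -0.29 and -0.19, with 51.7% and 42.9% lower. The 384 on chromosome 9 had medians of 0.07 and 0.17, with 35.7% and 36.7% higher. On the other 17 chromosomes medians ran from -0.16 to 0.00 at 12 h and from -0.05 to 0.07 at 0 h, 25.5% to 40.4% and 11.6% to 24.6% of genes were lower, and 18% to 33.3% and 16.4% to 28.2% were higher. Of all 6505 genes, 23.9% were higher and 35.8% lower at 12 h. These are descriptions of 1 line against another, with no test.

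The shift held in blocks of neighbouring genes, with 8 runs of equal gene number to a chromosome. On chromosome 12 it was 0.02 in the first run and between -0.68 and -0.32 in the other 7 at 12 h. On the X chromosome runs 3 to 6 had medians of -0.68, -0.96, -0.85 and -0.44, while the other runs lay between 0.12 and 0.20. On chromosome 9 the first run lay at -0.36 and runs 3 to 8 between 0.06 and 0.22. Over all 4 times, the median of chromosome 12 relative to the mean of all arrays was -0.38 to -0.30 on the 12 Δ(177-191) arrays and 0.06 to 0.17 on the 12 WT arrays, and the arrays of vector cells and of the series' other fusion line, with the K298E mutant of C/EBPα-ER, lay at 0.08 to 0.15. Whether copy number differs between the lines was not tested.

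**Figure D5:**
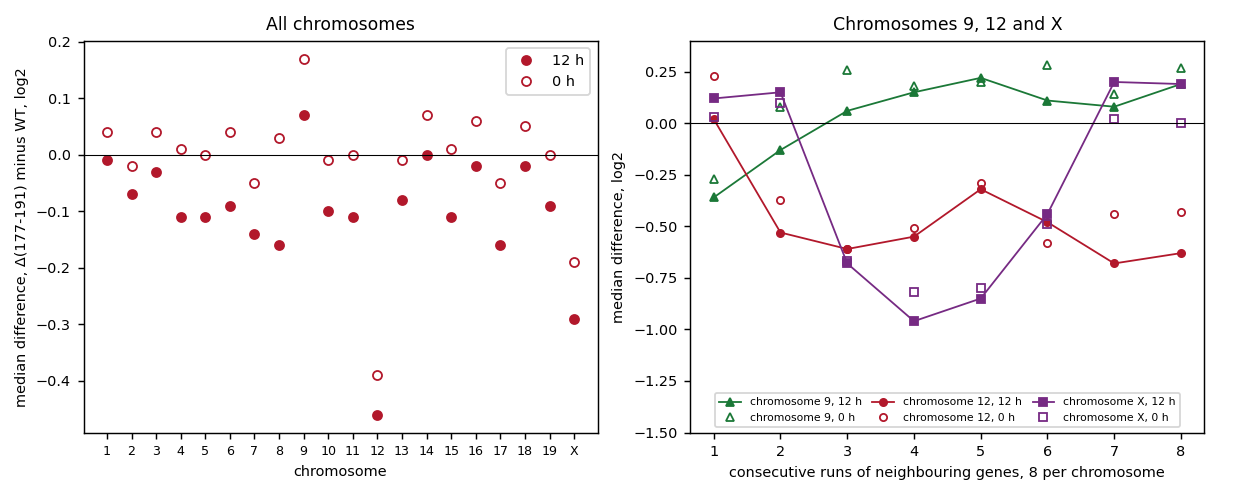
Median log2 difference, Δ(177-191) minus WT, of genes with a mean signal of 100 or more, by chromosome (left) and in 8 consecutive runs of neighbouring genes on chromosomes 9, 12 and X (right), with filled marks for 12 h and open marks for 0 h. Chromosome 12 lies lowest on the left at -0.46 and -0.39, and on the right runs 4 and 5 of the X chromosome lie lowest at both times, at -0.96 and -0.85 at 12 h.

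Several gene groups were counted again on the other chromosomes. Without chromosomes 9, 12 and X, later granule and S100 genes were 11 higher and 0 lower of 13, phagocyte receptors 18 and 1 of 26, and lysosome genes 18 and 1 of 21. Myc and ribosome biogenesis genes were 0 higher and 34 lower of 40, DNA replication genes 0 and 28 of 42, and nucleotide enzymes 2 and 18 of 22. Progenitor transcription factors were 4 higher and 15 lower of 24. ID and E proteins had 3 higher of 14, in place of 6 of 19, E2F and RB genes 8 lower of 18, mitotic genes 3 higher of 38 and lymphoid genes 0 higher of 6, beside 1866 and 2467 of all 11269 genes left. Of the genes named here, E2f6, Id2, Mthfd1, Pole2 and Tspan13 lie on chromosome 12, Birc3, Ccr1, Cd3d, Glb1, Icam1, Ltf and Ppan on chromosome 9, and Bhlhb9, Dkc1, Maged1 and Pola1 on the X chromosome, and the part of the chromosomes' shifts in their differences was not tested. Some of these differences had the opposite sign to the median of their chromosome, as in Bhlhb9 (5.42) and Id2 (1.97). Others had the same sign, as in Tspan13 (-4.82), Maged1 (-5.63), Pola1 (-1.77) and Ccr1 (3.10). The median of a chromosome does not give its part in the difference of a single gene.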

How the data were processed

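RNA of 48 cultures, 3 arrays in each of 16 groups of line and time, was measured on Affymetrix mouse 430 2.0 arrays. The deposited values are MAS5 signals, per the submitters' processing notes: linear intensities, in whole numbers, as deposited by the authors. Their trimmed mean, with 2% taken off each end, is about 100 on every array. The MAS5 version is not given in the sources used here. MAS5 subtracts mismatch signals, so values near 0 are noisy, and the constant of 3 added here before log2, the 20th percentile of all signals, shortens folds of dim probe sets.

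Of 45037 probe sets other than 64 controls, 27167 with a group mean above the median log2 value (signal 14) were tested. They were fitted with limma 3.58.1 (R 4.3.3, statmod 1.5.0) as 16 group means, with a variance trend, 32 residual degrees of freedom and Benjamini-Hochberg adjustment over all tested probe sets; a call is an adjusted p under 0.05, and ± gives the standard error. Positive differences are higher in Δ(177-191) cells. Names came from the platform annotation and from RefSeq (GRCm38.p6): 34945 probe sets had 1 symbol, 932 several and 9160 none. Each of 12800 genes is shown by its probe set of highest mean, and its p is that of the probe set.

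The 34 lists hold 1003 distinct genes, of which 818 were tested. Members and lists were chosen with earlier results of these data known. The text names the 15 largest rises and falls with a group mean of 100 or more, up to 3 rises and 3 falls of a list, the 5 largest changes of the difference each way, and genes fixed by role; Adgre1, Csf3r, Cdt1, Lcn2 and Ltf were added after their values were seen. Promoter windows of RefSeq matched 10329 of the genes tested. On simulated data with 200 changed probe sets of 27167, the 12 h fit called 57 at a log2 change of 0.5. It called 105 at 1 and 169 at 2, with 2, 8 and 13 others in that order. Far fewer probe sets changed there than the 32.4% called at 12 h, so these counts do not give the sensitivity of the fit to the data. No pair of arrays was identical. Other constants, filters, scalings, array weights, gene-level adjustment, a replicate block and left-out arrays were tried. Figures and tables used Python 3.11.15 with pandas 2.3.3 and numpy 2.4.6.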

Additional observations from a re-analysis of the deposited data

Results flagged for a closer look

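For 78 of the 133 genes tracked across settings, the difference between the lines at 12 h was not the one at 0 h. Their change (12 h minus 0 h, log2, Δ(177-191) minus WT) passed the threshold of the fit. It was a rise in 38 and a fall in 40. Over all genes 21.6% passed, but the shares are not comparable. Many of the genes tracked were named for a large difference at 12 h, and some for this change. No explanation was tested. Among granule and lysosomal genes, the change was -3.60 for Mpo, -3.08 for Prtn3, -2.73 for Ctsg, -2.31 for Lyz2, -2.29 for Lyz1, -0.92 for Gusb, 0.43 for Lipa, 1.29 for Ctss, 2.75 for Chil1 and 3.13 for Cst7. For receptors and adhesion genes of myeloid cells, it was -4.20 for Igsf6, -2.40 for Cxcr4, -1.28 for Cd93, -1.01 for Ccr1, -1.0 for Itgam, -0.56 for Fcgr2b, 0.58 for Clec4d, 0.67 for Icam1, 0.80 for Adgre1, 0.84 for Fcgr1, 0.89 for Cd74, 1.47 for Csf3r, 1.47 for Mpeg1, 2.03 for Il2ra, 2.10 for Podxl and 3.12 for Pilra. In chemokines, cytokines and immune effectors, values were -3.59 for Gzmb, 1.13 for Il6, 1.35 for Cxcl2, 2.31 for Ccl3, 2.89 for Wfdc17, 3.24 for Acod1, 3.27 for Ccl5 and 3.31 for Cd3d. Among transcription factors, the change was -2.40 for Myb, -2.22 for Tfec, -1.71 for Myc, -1.60 for Ikzf2, -1.29 for Gfi1, -0.35 for Gata2, 0.45 for Mecom, 0.65 for Cebpb, 1.12 for Cebpa and 2.04 for Nr4a3. For ribosome assembly and nucleotide synthesis, it was -1.69 for Gart, -1.38 for Srm, -1.27 for Dkc1, -1.10 for Mthfd1, -1.07 for Ppan and -1.0 for Wdr74. In DNA replication and the cell cycle, values were -1.23 for Pold2, -0.89 for Cdt1, -0.76 for E2f1, -0.74 for Pola1, -0.70 for E2f6, -0.64 for E2f8, -0.55 for Pole2 and 0.84 for Ccng2. Among lipid synthesis and lipid mediators, the change was -0.32 for Fasn, 0.85 for Anxa1, 1.05 for Hmgcs1, 1.61 for Alox5, 1.74 for Idi1 and 2.05 for Ptges. For signalling and cell death, it was -2.13 for Irak3, 0.66 for Bcr, 0.94 for Abl1, 1.08 for Zfp36, 1.28 for Birc3 and 1.37 for Dusp1. In genes of other roles, values were -3.32 for Cdh17, -1.74 for Mgl2, -1.40 for Trgv4, -1.26 for Cpa3, -1.0 for Celf4, -0.47 for Slc18a2, 1.82 for Ahnak and 3.14 for Tgm2.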

How the results depend on the processing

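Many of the 133 genes tracked across settings were named for a large difference at 12 h, which favours keeping a call. Their share of kept calls therefore does not carry over to all genes called. Of these 133 genes 125 were called at 12 h, and 116 of them kept direction and call under all 21 alternatives that could be run for them. The exceptions were Lmo2, Cdk6, Cdkn1a, Cdkn1b, Smarca2, Igsf6 and Cdh17, each named above with a value that lost its call, and Vim (0.36, adjusted p = 0.155 without replicate 3 of every group) and Acta2 (0.67, adjusted p = 0.284 without replicate 2); Igsf6 also did so with a constant of 1 (1.21, adjusted p = 0.0531). Of the genes not called, Esr1, Bcr and Gzmb (1.38 without replicate 3) were called under some settings. Uncalled differences turned sign when arrays were left out: Gzmb ran from -0.16 to 1.38, Kit from -0.28 to 0.98 and Ccnd2 from -0.17 to 0.00. With arrays left out the probe sets called numbered 6661 to 8037 at 12 h, 3996 to 5547 at 0 h, 6274 to 7738 at 6 h, 6943 to 8876 at 9 h and 2478 to 4225 for the change. Fewer arrays enter those fits. Counted over genes in place of probe sets the calls numbered 5207, 3735, 4965, 5318 and 2978, over fewer features tested. Under the other settings they numbered 7007 to 9311, 4948 to 6805, 6518 to 8495, 6513 to 9283 and 4010 to 5136. Median centring moved the split at 0 h to 3166 higher and 2759 lower, from 2935 and 3134 in the scaling as deposited. With the replicate block the calls numbered 8884 at 12 h, 6160 at 0 h, 8351 at 6 h, 9188 at 9 h and 4604 for the change, and Esr1 (adjusted p = 0.0278) and Bcr (adjusted p = 0.0458) were called. Same-numbered arrays correlated by 0.02 to 0.09 at 0 h and 0.00 to 0.05 at 12 h in their deviations from the group means. Arrays of other numbers correlated by -0.07 to 0.05 and by -0.05 to 0.02. The ranges overlapped, with that of the same numbers higher at both times, so whether the numbers pair arrays was not settled. Leaving out chromosomes 9, 12 and X was chosen after seeing the data and gave 7557 calls at 12 h. Values near the floor, as in Kit, Gzmb and Ccnd1, limit what these arrays can show of dim genes.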

Other observations

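Some transcripts set the Δ(177-191) line apart at all times. There were 17 genes at a signal of 50 or less on all 12 Δ(177-191) arrays and of 100 or more on all 36 arrays of the WT, K298E and vector lines, and 9 genes the other way round. The 17 were Sox4, Btg1, Celf4, Clstn1, Cpa3, Cul7, Icam2, Maged1, Nefh, Stxbp6, Syce2, Tiam1, Trgv1, Trgv4, Tspan13, Vkorc1 and 2310022B05Rik. The 9 were S100a8, Clec4n, Clec5a, Stfa2l1, Mndal, Bhlhb9, Ankrd22, P2ry10 and Tnfrsf22. By the same rule the WT and K298E lines had 0 genes each way, and the vector line had 1 gene low, Esr1, and 0 high. The rule was chosen after the values were seen, and these counts are a description with no test.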
